A study of Mus musculus with 8 samples.

Results

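The 6 actin genes of the mouse (Actc1, Acta1, Acta2, Actg2, Actb and Actg1) were followed through 8 single myocardial cells of the embryonic heart. Every probe that the array's design assigns to one of these symbols was taken, which gave 6 of 22594 gene symbols and 10 of the 55681 probes. Actg1 had 5 probes and each other gene 1. The labels give the heart tube as the source and the study's methods the heart ventricle, at embryonic day 8.5, when embryos had 9 somites. The 4 WT cells were Mesp1+/+ with Sox17 flox/flox, and the 4 KO cells were Mesp1 Cre/+ with Sox17 flox/flox, so that both groups carried the floxed Sox17 alleles and the groups differed by the Cre allele. Cre driven from the Mesp1 locus is active in early mesoderm, from which the myocardium and the endocardium both arise, and the KO cells themselves lack 1 intact Mesp1 allele. Each array held the amplified cDNA of a single cell, and the labels name no embryo for it. Each genotype was therefore read as 1 sample of 4 cells: no test was made, and every SD below is the spread between cells. The WT arrays occupied 1 slide and the KO arrays a second one, and genotype and slide cannot be told apart.

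Actins are the monomers from which thin filaments and the cortical cytoskeleton are polymerised. Actc1 encodes cardiac alpha actin and Acta1 skeletal alpha actin, the sarcomeric forms. Acta2 and Actg2 encode the alpha and gamma actins of vascular and enteric smooth muscle, and Actb and Actg1 encode the cytoplasmic beta and gamma actins found in nearly all cells. The embryonic heart is known to express several muscle actins together before cardiac actin predominates. Serum response factor (SRF), with myocardin and related cofactors, drives many actin genes through a short element, the CArG box, near their start sites.

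The 4 actin genes detected in all 8 cells had the following 250 bases before their start in RefSeq (build GRCm38.p6, all on the minus strand and printed 5′ to 3′ in the direction of transcription). They are shown because these members were read together in every cell. Capitals mark the CArG box, searched by exact match, which reads the same on both strands. In Acta2 they mark the matches in which 1 inner base is neither A nor T, a looser search chosen after the windows were seen.
Actc1, chr2:114052876-114053125: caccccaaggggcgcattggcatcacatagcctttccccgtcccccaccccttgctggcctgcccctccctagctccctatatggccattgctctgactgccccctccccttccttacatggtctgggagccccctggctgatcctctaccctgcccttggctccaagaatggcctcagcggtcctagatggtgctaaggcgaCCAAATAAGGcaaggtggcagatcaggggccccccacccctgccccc
Acta1, chr8:123894776-123895025: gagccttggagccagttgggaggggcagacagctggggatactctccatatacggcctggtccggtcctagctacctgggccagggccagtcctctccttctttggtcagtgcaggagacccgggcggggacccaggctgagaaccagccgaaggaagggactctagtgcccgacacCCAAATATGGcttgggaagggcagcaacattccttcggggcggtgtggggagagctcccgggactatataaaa
Acta2, chr19:34255374-34255623: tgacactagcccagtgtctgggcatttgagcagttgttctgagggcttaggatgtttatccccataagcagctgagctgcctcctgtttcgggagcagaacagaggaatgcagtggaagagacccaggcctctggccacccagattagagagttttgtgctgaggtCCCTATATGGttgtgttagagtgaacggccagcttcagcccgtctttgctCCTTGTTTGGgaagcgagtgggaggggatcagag
Actg1, chr11:120348496-120348745: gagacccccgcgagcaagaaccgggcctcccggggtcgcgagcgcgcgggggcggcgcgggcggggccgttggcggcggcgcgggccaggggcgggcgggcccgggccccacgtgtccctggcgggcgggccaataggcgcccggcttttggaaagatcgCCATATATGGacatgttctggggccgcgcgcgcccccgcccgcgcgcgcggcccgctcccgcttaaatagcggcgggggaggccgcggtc
The windows of Actc1, Acta1 and Actg1 each held 1 exact CArG box, which spanned 47 to 38 bases before the start in Actc1, 73 to 64 in Acta1 and 90 to 81 in Actg1. Of 32851 RefSeq windows of this length, 482 (1.47%) held one. The window of Acta2 held 0 exact boxes and 2 with 1 inner base off, at 84 to 75 and 34 to 25 bases before the start. Such looser matches occurred in 7.24% of all windows, and numbered 3 in Actc1, 2 in Acta1 and 0 in Actg1. A match is a description of the letters and no evidence of binding in these cells.

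The probes were 60 bases long, and the longest run that probes of different actin genes had in common was 8 bases. This compares probe with probe only. The probes were not set against the mRNAs of the other actins, whose proteins are closely alike. Whether a probe also reads another actin was not tested. Among the 5 Actg1 probes longer runs were shared. Of these, 3 lay over one another in the coding part of the mRNA, beginning at its bases 624, 662 and 672, and their sequences are shown because the same gene was read through different letters. Capitals mark the bases at which they differ.
Actg1 at 624: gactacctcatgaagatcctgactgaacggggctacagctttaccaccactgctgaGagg
Actg1 at 662: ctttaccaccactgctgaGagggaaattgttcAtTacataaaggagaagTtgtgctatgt
Actg1 at 672: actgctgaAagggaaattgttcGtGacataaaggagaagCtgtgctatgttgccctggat
Counted along the mRNA as the files number it, the probe at 662 and the probe at 672 differed over their 50 common positions by G680A, A694G, T696G and T711C, with the letter of the probe at 662 first. The probes at 624 and 662 had 22 common positions and 0 differences. The other 2 Actg1 probes began at 1723 and 1841. The files placed the probe at 624 on chromosome 11 (120208409 to 120208468, build mm9), the chromosome on which RefSeq has Actg1. They placed the other 4 elsewhere, on chromosome 16 at 64918277 (662) and 64917216 (1723), on chromosome 13 at 81204281 (672) and on chromosome 8 at 47316122 (1841). Which copy of the sequence these 4 probes read is therefore uncertain, and each is reported on its own.

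All values below are spot intensities after background subtraction, with each array scaled on the 50th percentile of the 5303 probes detected on every array. Values under 50 were set to 50, the floor. Detection in a cell means a spot well above background. Present probes are those with detection in each of the 4 cells of WT, of KO or of both. Detected probes made up 17.2% to 26.0% of an array. Each of the 8 cells showed all 10 markers of myocardium by this flag, although Actn2 stood at the floor in WT cell 1. The study had typed the cells by PCR of marker genes, so this may have been set by that choice. Of 7 smooth muscle markers 4 to 5 were detected per cell, with Myh11 and Lmod1 in 0 of 8, and of 13 endothelial markers 2 to 5. The smooth muscle count includes Mylk, which was flagged in all 8 cells but stood at the floor in each. Sox17, the deleted gene, was detected in 0 of 8 cells, WT included, and gives no check of the genotype. Arrays also differed in their bright probes. Over 1319 bright probes other than actins (the brightest 25% of those detected in every cell), the median deviation from the mean of the 8 cells was 0.79 on the log2 scale in WT cell 1, 0.53 in KO cell 3 and between -0.48 and 0.24 in the other 6 cells. WT cell 1 was the highest cell for 44.2% of these probes.

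The cardiac actin Actc1 was intense in every cell and varied little. Its probe (chr2:113873064-113873123, minus strand, mm9) read 458517.5, 240578.1, 188170.0 and 223247.0 in WT cells 1 to 4. It read 225348.0, 379632.6, 317624.7 and 355162.9 in KO cells 1 to 4. KO cells 2, 3 and 4 lay above WT cells 2, 3 and 4, while WT cell 1 exceeded every KO cell, so the genotypes overlapped. On the log2 scale WT cells averaged 17.99 ± 0.56 and KO cells 18.26 ± 0.33 (± SD, n = 4 each). KO minus WT was 0.26, below the spread between WT cells and below that between KO cells, and it was -0.09 with scaling over all probes and 0.00 with quantile normalization. The highest and lowest of the 8 cells were 2.44-fold apart.

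Skeletal actin Acta1 was detected in all 8 cells as well. Its probe (chr8:126416197-126416256, minus strand, mm9) read 36540.6, 9160.5, 12594.0 and 7592.7 in WT cells 1 to 4. The KO cells, in the same order, read 14255.3, 9352.6, 25718.6 and 25212.1. WT cell 1 was again the highest cell, with KO cells 3 and 4 next, and the remaining cells of both genotypes were mixed. WT cells averaged 13.71 ± 1.01 and KO cells 14.07 ± 0.70 (log2, n = 4 each). The difference of 0.36 was smaller than either SD. It was 0.87 without WT cell 1 and 0.08 without WT cell 4. The cells spanned 4.81-fold.

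Smooth muscle actin Acta2 was bright in all 8 cells, and these were labelled myocardial. The study typed each cDNA by PCR of marker genes before hybridisation. Whether Acta2 was among the genes used to choose these 8 cells is not given in the sources used here, so its detection in every cell may have been set by that choice. Its probe (chr19:34316060-34316119, minus strand, mm9) read 241476.0, 155666.3, 144637.8 and 84063.1 in WT cells 1 to 4. In KO cells 1 to 4 it read 102463.7, 58862.0, 175495.5 and 233288.4. The highest cell was WT and the lowest KO, and the other 6 cells were mixed. WT cells averaged 17.16 ± 0.62 and KO cells 16.94 ± 0.88 (log2, n = 4 each). The difference of -0.22 lay within the spread between cells. Without KO cell 2 it was 0.15, and without WT cell 1 it was 0.04.

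Acta2 is the member for which the error of the array itself can be read, because its probe was spotted 10 times. The SD between the spots of 1 array was 0.026 to 0.089 on the log2 scale, and the CV was 1.82% to 6.28%. The difference between the highest and the lowest cell, 4.10-fold or 2.04 on the log2 scale, was far larger than this technical spread. The spots share 1 amplified cDNA, so they carry no measure of the error of amplification.

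**Figure D1:**
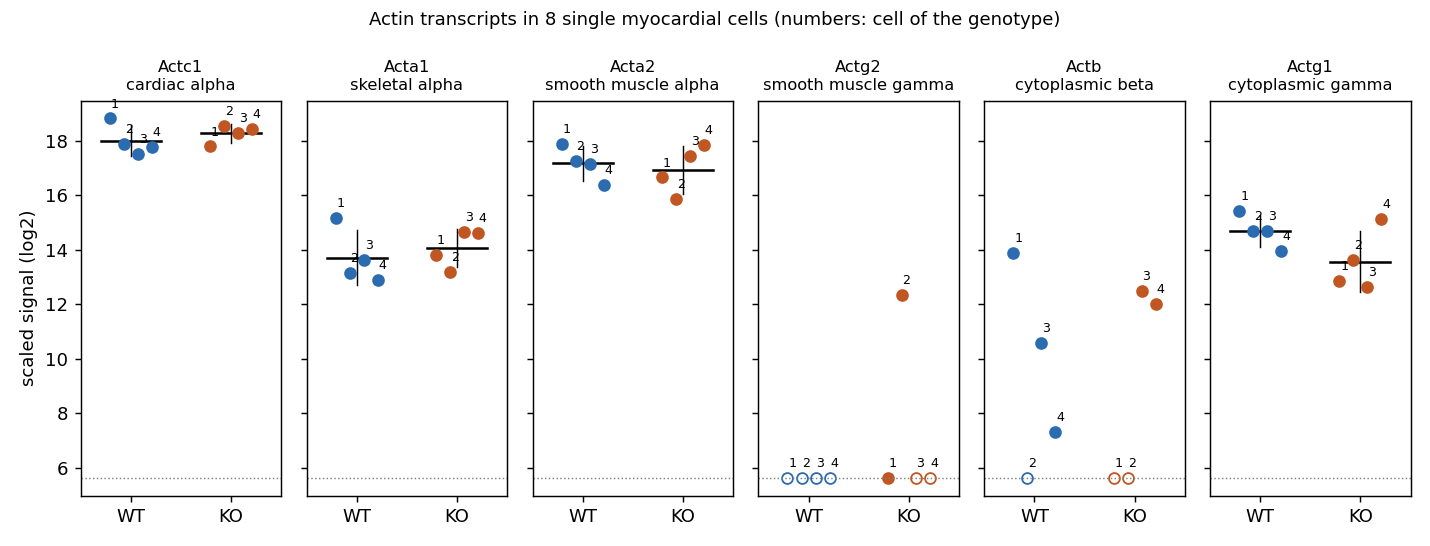
Scaled signal (log2) of the brightest probe of each actin gene in 4 WT and 4 KO cells; numbers name the cell, filled points are well above background, open points are not, and the dotted line is the floor of 50. Horizontal bars are means and vertical bars the SD over 4 cells, drawn only for the 4 genes detected in all 8 cells; the genotypes overlap in each of these, and heights are to be compared within a panel.

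Actg2, the enteric smooth muscle actin, was read above the floor in 1 cell. Its probe (chr6:83462904-83462963, minus strand, mm9) stood at 5169.3 in KO cell 2 and at the floor in the other 7 cells. It was well above background in KO cells 1 and 2, in KO cell 1 at a scaled signal of 6.9 before the floor was set, and in 0 of 4 WT cells. KO cell 2 was 103.4-fold over the floor. With floored values in both genotypes, the KO mean was 3.19-fold higher than the WT mean, or 1.67 on the log2 scale. This value is set in part by the floor, and with no floor the log2 difference was 3.78. It rests on KO cell 2 alone and was 0.00 without that cell. KO cell 2 was also the cell with the lowest Acta2.

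Among the cytoplasmic actins, Actb was detected in 5 of 8 cells. Its probe (chr5:143665422-143665481, minus strand, mm9) read 15046.3, 1517.2 and 159.7 in WT cells 1, 3 and 4, and 5734.5 and 4109.6 in KO cells 3 and 4. WT cell 2 and KO cells 1 and 2 were not well above background and stood at the floor. The values of the 5 detected cells thus ran from 159.7 to 15046.3 and the lowest and the highest of them were both WT. The KO minus WT difference of -0.41 ran from -1.67 without WT cell 2 to 1.11 without WT cell 1, and it was 0.17 with quantile normalization. The probe was not present in either genotype and entered no count.

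Cytoplasmic gamma actin, Actg1, had the largest difference among the actin genes that were present, with lower means in KO cells on all 5 probes. On the probe at 1723, its brightest, WT cells 1 to 4 read 43676.4, 26387.4, 26227.6 and 15770.0. KO cells 1 to 4 read 7329.3, 12677.7, 6409.9 and 35384.2. KO cells 1, 2 and 3 were lower than every WT cell, whereas KO cell 4 exceeded WT cells 2 to 4. WT cells averaged 14.68 ± 0.60 and KO cells 13.56 ± 1.12 (log2, n = 4 each), a difference of -1.12 or 2.18-fold. This was about the size of the spread between KO cells. The probe at 1841 gave a difference of -1.07 or 2.09-fold, with KO cells at 3595.5, 6651.9, 3430.7 and 19143.0 against WT cells at 22457.3, 13576.5, 12678.3 and 7818.1. Both probes placed the 8 cells in the same order.

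The coding probes ordered the KO cells differently. At 624 the WT cells read 28687.9, 9983.2, 5623.5 and 6364.9, and the KO cells 1587.9, 9434.7, 11740.4 and 13435.7. KO cell 1 was the lowest cell, and KO cells 2, 3 and 4 lay among or above WT cells 2, 3 and 4. The difference was -0.53, from 13.30 ± 1.07 to 12.77 ± 1.44 (log2, n = 4 each). At 672 the means were 10.57 ± 0.59 and 10.42 ± 1.25, and the difference was -0.15. At 662, the dimmest probe, the WT cells read 517.8, 1259.8, 661.5 and 572.7, and KO cells 2, 3 and 4 read 649.7, 77.5 and 928.2 with KO cell 1 at the floor. Its difference of -1.68 or 3.21-fold was the largest of the 5, and KO cells 1 and 3 were its low cells.

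The probes disagreed most on KO cell 3. Relative to the mean of the 8 cells it stood at -2.35 at 662, -1.47 at 1723 and -1.41 at 1841, but at 0.49 at 624 and 0.26 at 672, so the split did not follow the position on the mRNA. KO cell 1 was low on all 5 probes, between -2.98 and -1.28. The probes at 1723 and 1841 had r = 0.998 over the 8 cells with 28 of 28 pairs of cells in the same order, and those at 624 and 672 had r = 0.93. The probe at 1723 had r = 0.59 with 624, 0.55 with 672 and 0.81 with 662, and the probe at 662 had r = 0.52 with 624 and 0.65 with 672, the probes it overlaps. These values describe 8 cells that share a slide within a genotype. The differing bases of the overlapping probes are those printed above, and the part of the uncertain placement of 4 probes in these readings was not tested.

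**Figure D2:**
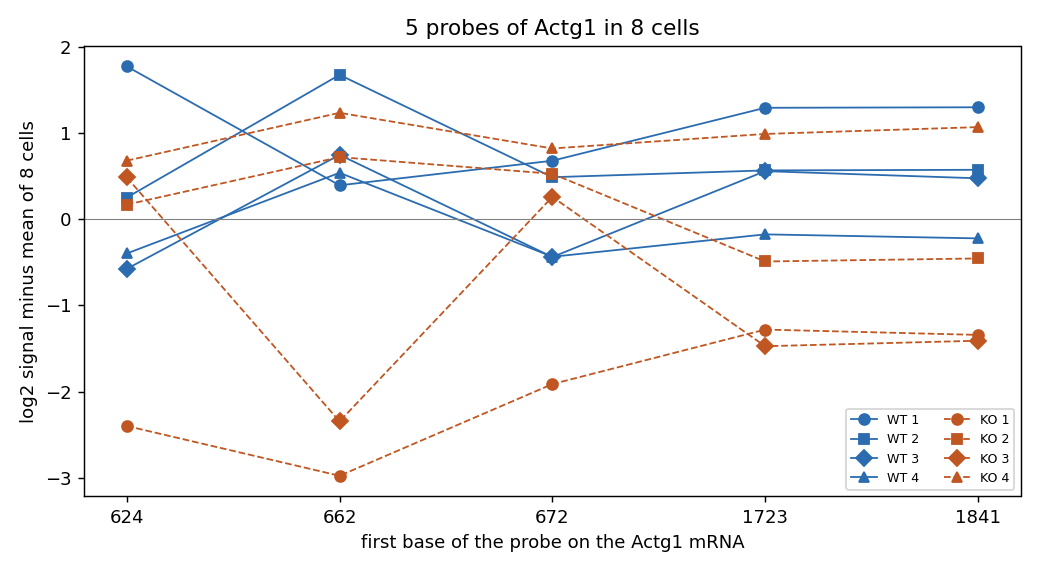
Log2 signal minus its mean over the 8 cells for each Actg1 probe, placed in order of its first base on the mRNA and not to scale; solid lines are WT cells and dashed lines KO cells. The lines of the probes at 1723 and 1841 run level, while KO cell 3 moves from 0.49 at 624 to -2.35 at 662, 0.26 at 672 and -1.47 at 1723.

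Read against all probes, the actins did not stand out by the size of their difference. Of the 8 present actin probes, 0 passed the study's size rule of 5-fold in the direction of lower KO signal, where the background was 6.88% of 7467 present probes, and 0 were at least 5-fold higher, where it was 1.75%. At 2-fold, 3 actin probes had lower KO means, all of Actg1 (662, 1723 and 1841), against 16.3% of present probes, and 0 were higher, against 11.4%. In 0 actin probes did all cells of one genotype lie on one side of the other, against 2.25% of present probes with KO below and 3.23% with KO above. KO cell 4 decided the last count for Actg1. Without it the probes at 1723 and 1841 had every KO cell below every WT cell, where the background was 3.76% of 7712 probes. The probe at 662 was then 5.21-fold lower, where the background was 8.27%. KO cell 4 was the highest KO cell on these probes and was picked after the values were seen, so this outcome follows from the choice. Both shares leave out the same cell for every probe, not the cell that best separates each probe. The probes at 1723 and 1841 had r = 0.998 and amount to 1 reading. The present probes include some that were flagged as detected but stood at the floor in all 8 cells. Such probes can pass no size or overlap rule and lower these background shares, by an amount that was not counted. For scale, the median difference over the probes detected in all 8 cells was 0.15.

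**Figure D3:**
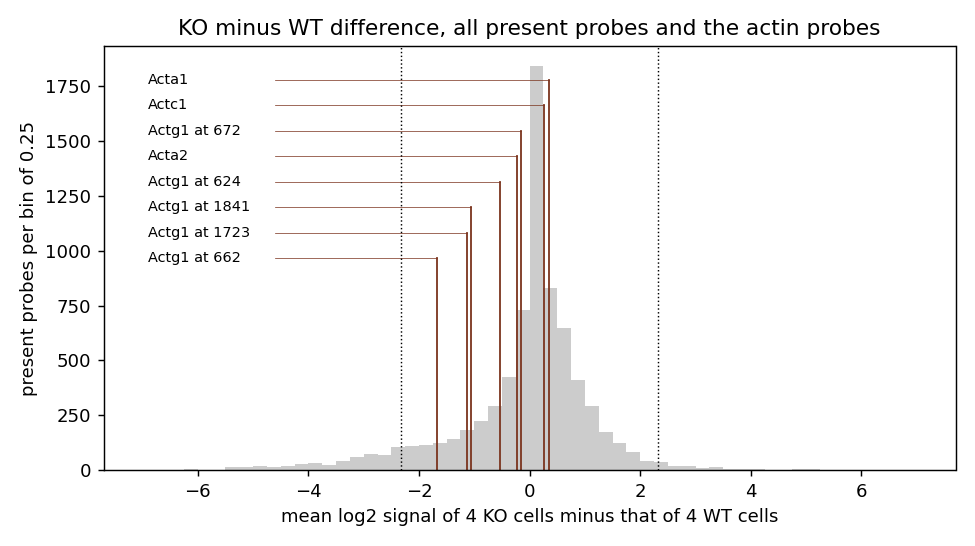
Histogram of the KO minus WT difference (log2) over 7467 present probes, with the 8 present actin probes as labelled lines and the 5-fold rule as dotted lines. All actin lines fall between the dotted lines, from -1.68 for Actg1 at 662 to 0.36 for Acta1.

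The members also differed in how widely they varied from cell to cell. The SD over all 8 cells was 0.45 for Actc1, 0.72 for Acta2, 0.83 for Acta1 and 1.03 for Actg1 at 1723 (log2). Among the 1325 brightest 25% of probes detected in every cell, 5.13% had a smaller SD than Actc1. The same share was 36.2% for Acta2, 52.2% for Acta1 and 75.8% for Actg1 at 1723. The cardiac form was thus among the steadier of the bright transcripts and the cytoplasmic gamma form among the more variable.

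**Figure D4:**
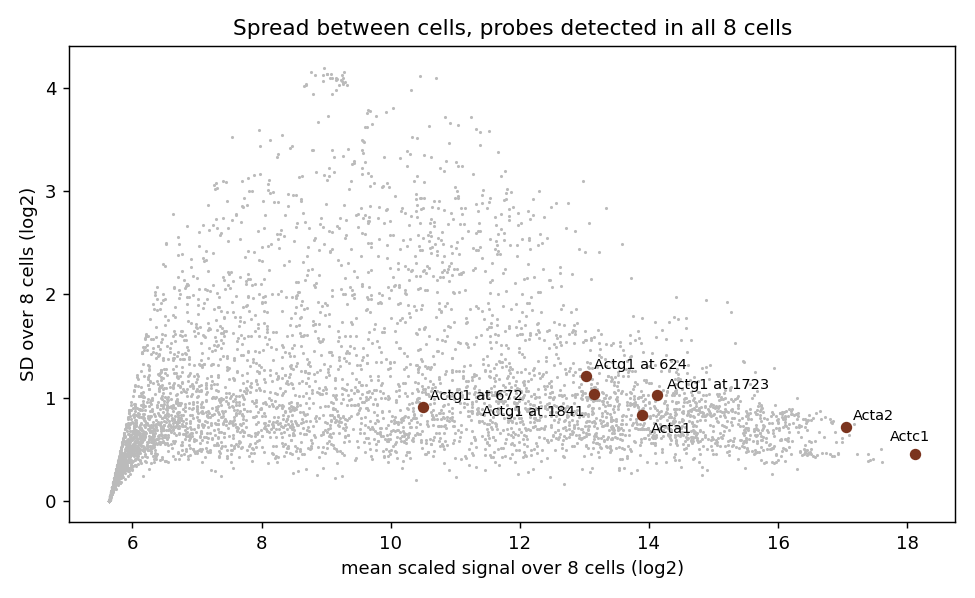
SD over 8 cells against mean scaled signal (both log2) for probes detected in all 8 cells, with the 7 actin probes of this kind marked. Actc1 lies low among bright probes with an SD of 0.45, and the Actg1 probes lie at 0.91 to 1.21.

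The muscle actins detected in every cell varied with the general level of bright probes, and the Actg1 probes did so to unequal degrees. Acta1 followed the median of the other bright probes with r = 0.97 over the 8 cells, Actc1 with r = 0.71 and Acta2 with r = 0.68, whereas r was 0.11 for Actg1 at 1723, 0.14 at 1841, 0.32 at 672 and 0.54 at 624. Between members r was 0.80 for Acta1 and Acta2, 0.63 for Actc1 and Acta1 and 0.29 for Actc1 and Acta2. After the bright median of each cell was subtracted, a step chosen after these values were seen, r was 0.46 for Acta1 and Acta2 and -0.42 for Actc1 and Acta1. Actb, at the floor in 3 cells, had r = 0.86 with Acta1 before and 0.85 after this step. Measured against the bright median, the KO minus WT difference was 0.07 for Actc1, 0.16 for Acta1, -0.42 for Acta2 and -1.32 for Actg1 at 1723. On that scale the WT cells stood at 0.38 to 0.92 on the probe at 1723 (SD 0.24), KO cells 1, 2 and 3 at -1.24, -0.29 and -1.94, and KO cell 4 at 0.82. On the probe at 624, the one placed on chromosome 11, the difference was -0.73 with an SD between WT cells of 0.60, and KO cells 2 and 3, at 0.37 and 0.02, lay inside the WT range of -0.36 to 1.05. At 672 the difference was -0.35.

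The balance between forms within a cell was read as the log2 ratio of 2 actins minus its mean over the cells, which shows unequal change and not which of them changed. Actg1 at 1723 over Actc1 was 0.69 ± 0.41 in WT and -0.69 ± 0.97 in KO cells (n = 4 each). It was above 0 in all WT cells, from 0.18 to 1.16, and below 0 in KO cells 1, 2 and 3, with KO cell 4 at 0.68. This split holds for the probe at 1723, which the files place on chromosome 16. The probe at 624, the one placed on chromosome 11, did not share it. Relative to the mean of the 8 cells, KO cell 3 stood at 0.49 on the probe at 624 and at 0.15 on Actc1. WT cell 4 stood at -0.40 and -0.36. KO cells 1 and 2 stood lower at 624 than on Actc1, and KO cell 4 and WT cells 1, 2 and 3 higher. In signal on the probe at 624, KO cell 1 was lowest and KO cells 2, 3 and 4 lay among or above WT cells 2, 3 and 4. Acta2 over Actc1 ran from -0.33 to 0.70 in WT and from -1.61, in KO cell 2, to 0.47 in KO cells. Acta1 over Actc1 differed by 0.09 between the genotypes.

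Acta2 was accompanied by calponin, Cnn1, which binds actin in smooth muscle. Cnn1 read 75612.3, 15955.2, 12545.4 and 9970.9 across the WT cells. Across the KO cells it read 8979.6, 1626.7, 36970.5 and 24728.6. KO cell 2 was the lowest cell for both genes and WT cell 1 the highest. The correlation with Acta2 was r = 0.92 over 8 cells, from 0.84 to 0.95 with any 1 cell left out, and 0.77 against the bright median. Transgelin, Tagln, another actin-binding protein of smooth muscle, read 4601.4, 341.6, 2300.7 and 702.8 in WT and 1476.9, 266.7, 571.8 and 7165.0 in KO cells, with r = 0.69 to Acta2 and 0.55 against the bright median. Profilin, Pfn1, and cofilin, Cfl1, which are not particular to smooth muscle, had r = 0.84 and 0.78 with Acta2. These were higher than that of Tagln and lower than that of Cnn1.

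The other 5 smooth muscle markers did not share the order of Acta2. Desmin, Des, an intermediate filament protein of muscle, was at the floor in KO cell 2 but highest, at 1272.5, in WT cell 4, the cell with the next lowest Acta2. Smoothelin, Smtn, was at the floor in WT cell 1 and KO cells 3 and 4, the 3 cells of highest Acta2, and read 1141.8 in WT cell 2. Mylk, the kinase of smooth muscle myosin, was at the floor in all 8 cells, as were Myh11 and Lmod1, which were not detected. The summed level of the 7 markers was 12451 to 81467 in WT and 2152.3 to 38873 in KO cells and was made up mostly of Cnn1, which alone read 9970.9 to 75612.3 and 1626.7 to 36970.5. The part of smooth muscle transcripts in the Acta2 values was not tested.

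**Figure D5:**
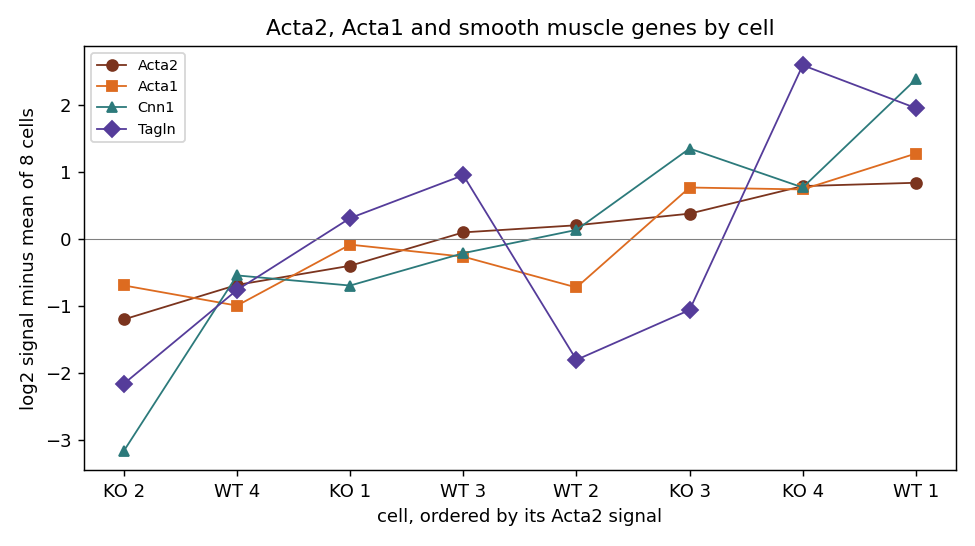
Log2 signal minus its mean over the 8 cells for Acta2, Acta1, Cnn1 and Tagln, with the cells ordered along the horizontal axis by Acta2. Cnn1 is lowest in KO cell 2 and highest in WT cell 1 as Acta2 is, and Tagln departs from that order in WT cell 2 and KO cell 3.

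The proteins that act on actin were read through 5 gene lists, with each gene taken by its brightest probe and kept when detected in at least 4 of the 8 cells. Of 5419 genes so measured, 46.2% were lower and 41.9% higher in KO by any size, 10.2% were at least 5-fold lower and 2.69% at least 5-fold higher, and the median difference was 0.00. The remaining genes had a difference of 0, as Mylk did at the floor in every cell, and the median fell among them. Such genes can pass no size or overlap rule and lower the shares given for genes. Among 18 thin filament partners 13 were measured, of which 7 were lower and 6 higher, with a median of -0.08. The cardiac tropomyosin Tpm1, which winds along the thin filament, was higher in all 4 KO cells than in any WT cell. It stood at 16.45 ± 0.21 in WT and 17.21 ± 0.10 in KO (log2, n = 4 each, difference 0.76). KO lay above WT without overlap in 1.48% of the 5419 genes measured and in 3.23% of present probes. The tropomyosins Tpm3 and Tpm4 were past 5-fold with differences of -3.52 and -3.92. Tpm3 was detected in 4 WT and 2 KO cells and Tpm4 in 4 WT and 3 KO cells. Tpm3 stood at the floor in KO cells 1 and 3, and Tpm4 in KO cells 1 and 2. Tpm4 was also named by the study from these cells. Actn4, a non-muscle alpha actinin, stood at -3.35 but was not detected in all cells of either genotype.

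Among 24 genes of actin assembly and monomer binding 18 were measured, with 11 lower, 7 higher and a median of -0.39. The cyclase-associated protein Cap1 and the twinfilin Twf1, both of which bind actin monomers, differed by -4.47 and -3.58, each detected in 4 WT and 2 KO cells. Capzb, which caps the fast-growing end of filaments, was higher by 2.83 and detected in 3 WT and 4 KO cells. It stood at the floor in WT cells 1 and 3. Profilin, Pfn1, and cofilin, Cfl1, detected in every cell, differed by 0.12 and -0.17. The 5 measured subunits of the Arp2/3 complex, which nucleates branched filaments, all had lower means in KO, with differences of -2.11 for Actr2, -1.67 for Actr3, -1.72 for Arpc2, -0.43 for Arpc4 and -1.90 for Arpc5. This group was picked out after its values were seen, and the first 3 and the last were detected in fewer KO than WT cells.

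SRF and its cofactors were less often measured, 4 of 8 genes, of which 3 were lower and 1 was higher in KO, with a median of -1.05. Gata4, a cardiac transcription factor that works with SRF, differed by -3.98 with 4 WT and 3 KO cells detected. It stood at the floor in KO cells 2 and 3, and it too was named by the study from these cells. Srf itself differed by -0.38 and was detected in 4 WT and 2 KO cells. Of 20 cytoskeletal targets of SRF 17 were measured, with 9 lower, 7 higher and a median of -0.12. Filamin C, Flnc, a muscle cross-linker of actin, was higher in all 4 KO cells than in any WT cell, at 8.65 ± 2.29 in WT and 12.82 ± 1.38 in KO (log2, n = 4 each, difference 4.17). Flnc stood at the floor in WT cell 1, though flagged there as detected. The myosin light chain Myl9 showed no overlap either, with KO higher by 1.15. In this list only Flnc and Myl9 did so, and KO lay above WT without overlap in 1.48% of the 5419 genes measured. Ankrd1 was higher by 3.02 but, like Actn4, was not detected in all cells of either genotype. Filamin A, Flna, and smoothelin, Smtn, differed by -2.45 and -2.67, with Smtn close to the floor in KO cells. Of 12 actin-related genes 3 were measured, all lower, with a median of -1.06 and 0 past 5-fold. Differences that involve undetected cells, or detected cells at the floor, are set in part by the floor.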

How the data were processed

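Single-cell cDNA of 8 cells was amplified by the authors from oligo(dT)-primed first strands and read out by T3 transcription, and the Cy3-labelled product was hybridised to Agilent 1-colour arrays. Per the study's methods, the cell type of each cDNA was identified by PCR of marker genes before hybridisation, and values under 50 were set to 50 and arrays scaled on their 50th percentile. The deposited files hold intensity values from Feature Extraction 12.0.2.2, already corrected for background. Control spots and outlier-flagged spots (146 to 220 per array) were left out, and 0 spots were saturated. Log2 values of the deposited processed signal were averaged over the spots of a probe, shifted by -0.76 to 0.68 on the 50th percentile of 5303 probes detected on all 8 arrays, and floored at 50. Because under 50% of probes were detected, the percentile was not taken over all probes. Detection is the software's flag for signal well above background, over the spots of a probe. The brightest probe of a gene represented it in the KO minus WT difference of means. Named genes were the 6 actins with all probes, the 2 genes most correlated with each, and list genes past 5-fold that were detected in all 4 cells of a genotype. Genes named outside this rule were chosen after their values were seen. The members, lists and comparisons were chosen with earlier results of these data known. Alternatives were other scalings, normexp with limma 3.58.1 (R 4.3.3), no floor, other filters and size rules, and each cell left out. Calculations used Python 3.11.15 and numpy 2.4.6 and were tested on simulated data. These had less spread between cells than the real arrays and the same probes detected in every cell. That test checks the code and not how the rules behave in data like these. Probe positions are those of the files (mm9), promoter windows those of RefSeq (GRCm38.p6), which held 4 of the 6 genes. The number of arrays limits the precision.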

Additional observations from a re-analysis of the deposited data

Results flagged for a closer look

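Of 19 sets of 4 cells examined, 1 probe and 1 genotype each, 2 held a cell far from the other 3, where chance alone flags about 1 in 20. For Actg2 the gap between KO cell 2 (5169.3) and the nearest KO cell took up the whole range of the KO cells, a ratio of 1.0, past Dixon's limit for 4 values, because the other 3 KO cells stood at the floor. For Actg1 at 624 the gap below KO cell 1 (1587.9), the lowest KO cell, took up 0.83 of the range of the KO cells (0.8345 before rounding).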

How the results depend on the processing

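No paired analysis was possible because no result comes from a test, and cells with the same number in the labels share a number only. Of 248 recomputed values, 240 moved by less than the spread between cells or, for counts, by no more than 1.5 times, and 8 moved further. Signs of small differences did turn: Actc1 was -0.09 with scaling over all probes, Actb 0.17 with quantile normalization, and the thin filament median 0.14 with medians of cells and 0.28 over genes detected in all 8 cells, beside the omissions below that cross 0. The number of actin probes at least 5-fold lower in KO was 1 with no floor, 3 with a 2-fold rule and 0 to 1 when each cell was omitted in turn (1 without KO cell 4). The number without overlap was then 0 to 2, and 2 was reached without KO cell 4. The Actg1 difference was -0.15 with the probe at 672, added after seeing the data, and between -1.64 and -0.82 over the 8 omissions. Over these omissions the other differences were 0.11 to 0.56 for Actc1, 0.08 to 0.87 for Acta1, -0.52 to 0.15 for Acta2, 0.00 to 2.25 for Actg2 and -1.67 to 1.11 for Actb. The list medians were -0.17 to 0.56 for thin filament partners (0.56 without KO cell 4), -0.64 to 0.08 for actin assembly, -2.05 to -0.14 for SRF and cofactors, -0.23 to 0.47 for SRF targets (0.47 without KO cell 2) and -1.60 to -0.09 for actin-related genes. Over genes detected in all 8 cells the median of actin assembly was 0.51, and the actin-related list had no gene left. Scaling moved the median difference over probes detected in all 8 cells from 0.15 to between 0.00 and 0.32. Differences that involve values at the floor are set in part by the floor, and detection in 4 cells cannot tell a missing transcript from one lost in amplification.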

Other observations

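Over the 8 cells and among 1410 probes with a gene symbol that were detected and above the floor in every cell, the genes most like each actin were read by Pearson r, as the highest of many values and with no test. For Actc1 they were the somatostatin receptor Sstr5 (0.99) and parathymosin, Ptms (0.98). For Acta1 they were the ribosomal protein gene Rpl36a (0.98) and Dlk2 (0.95). For Acta2 they were Eif4ebp1 (0.97), which encodes a binding protein of the translation initiation factor eIF4E, and Plcxd1 (0.96). For Actg1 at 1723 they were Capn6 (0.92) and Smarcc1 (0.91), a subunit of a chromatin remodelling complex. Each r is that of the best probe of the gene. Smarcc1 had 3 other probes, Rpl36a 2 and Dlk2 1, and their r is not given here. The cells share a slide within each genotype, and the arrays differ in the level of their bright probes.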
